A study of Homo sapiens with 2 samples.

Results

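The endothelin system was described in cells of the ovarian cancer cell line RMG1 that had been sorted by the ALDEFLUOR assay into cells with high aldehyde dehydrogenase activity (ALDH+ cells) and cells with low activity (ALDH- cells). The set held 7 genes, the ligand genes EDN1, EDN2 and EDN3, the receptor genes EDNRA and EDNRB, and the converting enzyme genes ECE1 and ECE2, out of 27193 gene names with a probe on the array. Members were chosen by the gene name printed on the array, and the set was selected on the measured ratio of EDN1, which is among the highest in ALDH+ cells; that ratio is therefore given as a description and supports nothing. All probes of each member were kept, which gave 12 probes on 21 spots per array. Both populations came from the same line in medium with fetal bovine serum, with no other treatment named. The labels of the samples give RMG1 as the line. Since the methods instead name AMOC2 for the RNA isolation, the labels were followed.

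RNA of 1 sort of each population was labeled with Cy5 or Cy3 and hybridized to 2 two-color arrays of probes 60 bases long. On array 1 the ALDH+ cells were in Cy5 and the ALDH- cells in Cy3, and on array 2 the dyes were exchanged. As the arrays shared a single extract of each population, they were counted as 1 replicate, so no test was possible, no p-value is given, and any SD is technical. Of 43118 gene probe spots per array, none was saturated. Genes entered the comparison with their brightest measured probe. Here a measured probe is one that the scanner software flagged as well above background in the same population on both arrays. Either population could meet this, and 13718 genes had such a probe. Ratios are log2 of ALDH+ over ALDH- cells after background correction and dye normalization. Among the 13718 genes, 29 (0.211%) were more than 2-fold higher and 97 (0.707%) more than 2-fold lower in ALDH+ cells, or 53 and 45 with the arrays centered on their median in place of an intensity-dependent dye correction. The median log2 ratio of all these genes was -0.0023 in the mean of the arrays. At 1.5-fold, 207 genes (1.51%) were higher and 630 (4.59%) lower.

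Endothelins are short vasoconstrictor peptides, named for the endothelial cells that secrete endothelin-1. Each is cut from a larger precursor, first by furin-type proprotein convertases to an inactive big endothelin and then by the membrane metalloproteases encoded by ECE1 and ECE2. The peptides act through 2 G protein-coupled receptors, EDNRA and EDNRB, which couple to phospholipase C, calcium release and protein kinase C. In ovarian carcinoma, endothelin-1 is known as an autocrine growth factor that acts mainly through EDNRA.

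EDN1 was measured by a pair of probes, and their letters are shown because they gave ratios of different size. The first probe was printed on 10 spots and lies at chr6:12296672-12296731 (hg19, plus strand), downstream of the other. Only its first 30 bases are shown. The second was printed on 1 spot, lies 454 bases upstream of it, at chr6:12296218-12296277 (hg19, plus strand). The dimmer ECE1 probe, at chr1:21560066-21560125 (hg19, minus strand), is shown because it too gave a larger difference than the other probe of its gene. Exon positions of the probes were not derived here. No letters are set in capitals, since no part of these probes was singled out.
EDN1, probe on 10 spots, first 30 bases: aggcgcctggcacatttcagggagaaactc
EDN1, probe on 1 spot: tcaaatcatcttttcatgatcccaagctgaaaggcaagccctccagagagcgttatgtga
ECE1, dimmer probe: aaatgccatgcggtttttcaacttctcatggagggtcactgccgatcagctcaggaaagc

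EDN1, which encodes the precursor of endothelin-1, had a higher signal in ALDH+ cells on both arrays after dye normalization. With the repeated probe, the mean spot signal on array 1 was 981 in ALDH+ cells (Cy5) and 269 in ALDH- cells (Cy3). On array 2 it was 624 in ALDH+ cells (Cy3) and 261 in ALDH- cells (Cy5). The ALDH+ signal was the higher one in either dye. Within an array the populations were in different dyes, so their raw signals there are not on the same scale. On array 1 the median negative control spot was at 45.1 in Cy5 and 135 in Cy3. On array 1 the 10 spots ranged from 762 to 1123 in ALDH+ cells and from 232 to 289 in ALDH- cells. On array 2 they ranged from 512 to 693 in ALDH+ cells and from 203 to 302 in ALDH- cells. All of these spots lay above the 153 negative control spots of their own dye and array, whose highest value was 178 in any channel. In RNA of sorted cells, more cells with the transcript and more transcript per cell cannot be told apart.

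**Figure D1:**
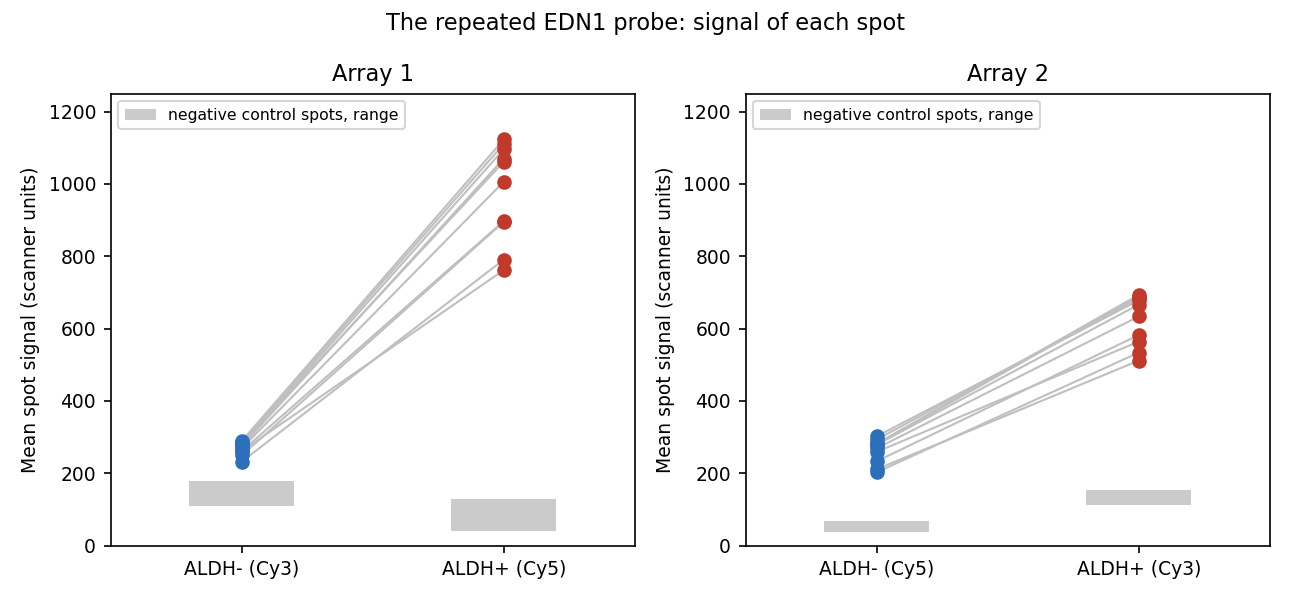
Mean spot signal (scanner units, linear axis from 0) of each of the 10 spots of the repeated EDN1 probe in ALDH- and ALDH+ cells, one panel per array; a line joins the values of 1 spot and grey boxes give the range of the 153 negative control spots. The lowest ALDH+ spots were at 762 on array 1 and 512 on array 2, and the highest ALDH- spots at 289 and 302. Within a panel the populations were in different dyes, so their raw signals are not on the same scale.

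The log2 ratio of the repeated EDN1 probe was 1.45 on array 1 and 1.71 on array 2. Their mean of 1.58 (technical SD 0.18) is 2.99-fold higher in ALDH+ cells. Among single spots the log2 ratio ran from 1.18 to 1.56 on array 1 and from 1.55 to 1.80 on array 2, so that all 10 spots passed 2-fold on each array. The SD between spots was 0.10 on array 1 and 0.08 on array 2, below the difference between the arrays. EDN1 had the 5th highest mean ratio of the 13718 genes. LTB, encoding the cytokine lymphotoxin beta, stood just above it at 1.64, and PROM1, encoding the surface protein CD133, just below it at 1.48.

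The single-spot EDN1 probe pointed the same way with a smaller ratio. Its signals were 198 in ALDH+ and 172 in ALDH- cells on array 1, and 216 in ALDH+ and 84.9 in ALDH- cells on array 2. The ALDH- value on array 1 lay inside the range of the negative control spots of that channel, 109 to 178, and was not well above background. The ALDH- value on array 2 was above its own range, 37.8 to 69.6. The log2 ratios were 0.70 and 0.81, with a mean of 0.76 (technical SD 0.08), which is 1.69-fold. This value depended on how the background was removed, since the array software's own ratio was 2.65 on array 1 and 1.65 on array 2, a mean of 4.44-fold. Under that ratio the repeated probe was at 1.85 and 2.13, so the order of the probes turned on array 1 and held on array 2. With the normalization used here, the EDN1 probes differed by 0.82 in mean log2 ratio. Of 2510 genes with several measured probes, 1.71% differed at least as much, and the median difference was 0.17. With an ALDH- value at background on 1 array, the size of the single-spot probe's ratio is uncertain.

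**Figure D2:**
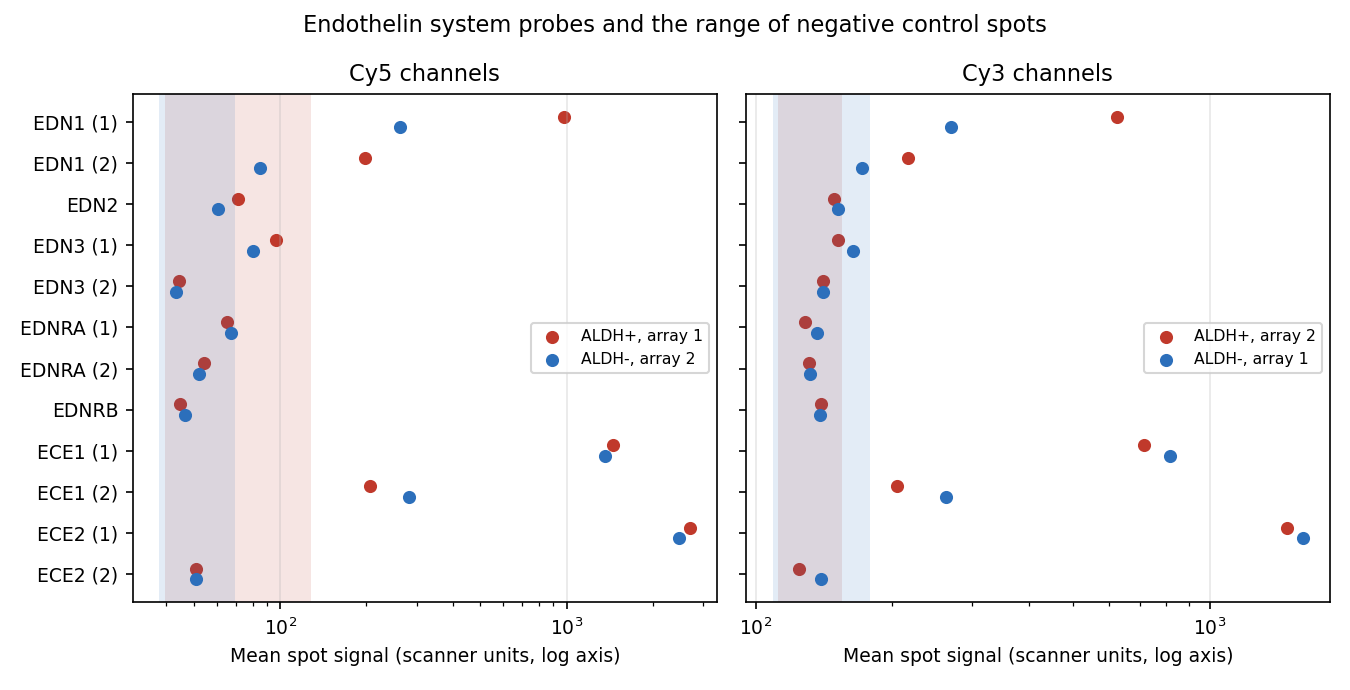
Mean spot signal (scanner units, log axis) of each of the 12 probes in the Cy5 channels and in the Cy3 channels, ALDH+ cells in red and ALDH- cells in blue; numbers in brackets count the probes of a gene from the brightest, and shaded bands give the range of the 153 negative control spots in the channel of the same color. The EDN1, ECE1 and first ECE2 probes stand to the right of the bands, apart from the ALDH- value of the second EDN1 probe in Cy3 (172), and the EDN2, EDN3, EDNRA, EDNRB and second ECE2 probes lie inside or close to them.

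Neither of the other ligand genes had a measured probe. The EDN2 probe, for the endothelin best known from intestine and ovary, lies at chr1:41944456-41944515 (hg19, minus strand). It gave 71.0 in ALDH+ and 152 in ALDH- cells on array 1, and 149 in ALDH+ and 60.4 in ALDH- cells on array 2. These values followed the dye and not the population, and none was well above background. EDN3, which encodes endothelin-3, a ligand of EDNRB in neural crest cells, had a pair of probes. The probe at chr20:57899402-57899461 (hg19, plus strand) gave 96.7 in ALDH+ and 164 in ALDH- cells on array 1, and 152 in ALDH+ and 80.2 in ALDH- cells on array 2. It was well above background in Cy5 in both populations and in Cy3 in neither, and its log2 ratios were 0.06 and -0.13. The EDN3 probe at chr20:57900681-57900740 was well above background in no channel, with signals of 44.2 and 43.1 in Cy5 and 141 in Cy3 in both populations.

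The receptor genes were not measured above background in ALDH+ cells in any channel. EDNRA, encoding the receptor that prefers endothelin-1 and endothelin-2, had a pair of probes. The probe at chr4:148441029-148441088 (hg19, plus strand) gave 65.3 in ALDH+ and 136 in ALDH- cells on array 1, and 129 in ALDH+ and 67.2 in ALDH- cells on array 2. Of its channels, only that of the ALDH- cells on array 2 was well above background. Its log2 ratios of 0.33 and -0.51 changed sign with the dyes, and their technical SD of 0.59 was the largest among the 12 probes. The EDNRA probe at chr4:148465478-148465537 gave 54.0 and 51.8 in Cy5 and 131 in both Cy3 channels, with log2 ratios of 0.10 and 0.07. EDNRB encodes the receptor that binds all 3 endothelins alike. Its probe at chr13:78470568-78470627 (hg19, minus strand) gave 44.5 and 46.4 in Cy5 and 140 and 139 in Cy3, in ALDH+ and ALDH- cells respectively. The EDNRB signals lay within 1.10 times the median of the negative control spots of their channel. No change is read from the log2 ratios of EDN3 and EDNRA, because both populations were at or near background. A transcript below what these probes could show was not detectable, which does not show that it was absent.

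**Figure D3:**
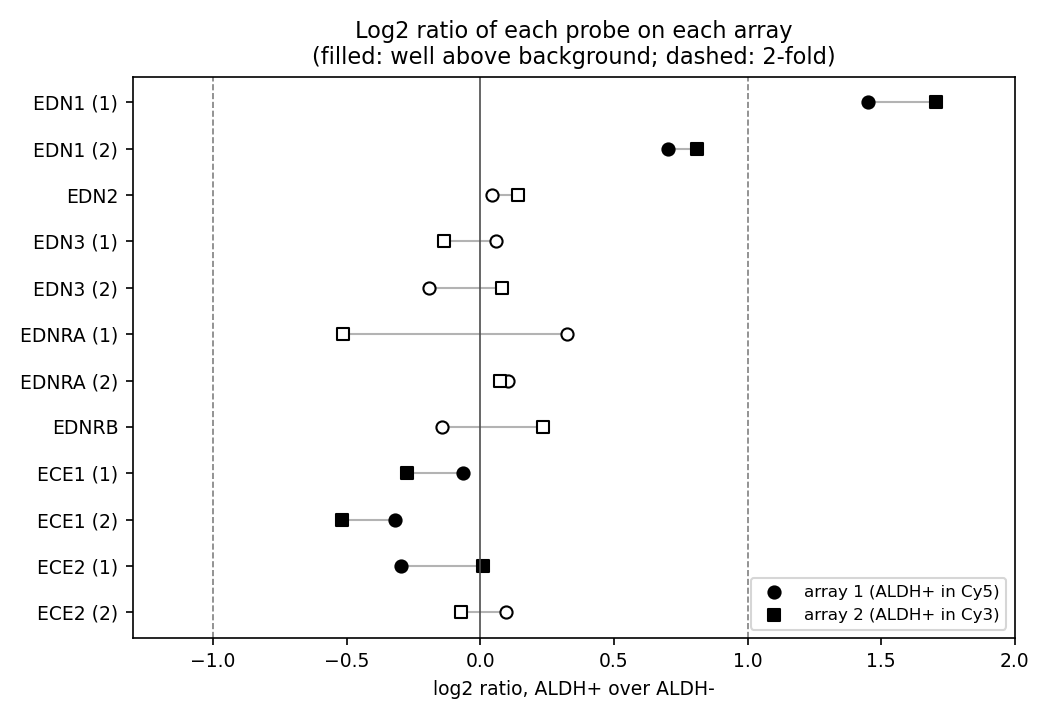
Log2 ratio of ALDH+ over ALDH- cells for each of the 12 probes on array 1 (circles) and array 2 (squares); filled symbols mark measured probes, open symbols the others, and dashed lines 2-fold. The repeated EDN1 probe is past 2-fold on both arrays (1.45 and 1.71), the ECE1 probes are below 0 on both, and the first EDNRA probe goes from 0.33 to -0.51.

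ECE1 encodes the enzyme that releases active endothelin-1 from big endothelin-1. It was measured well above background with both of its probes in every channel. The brighter probe, at chr1:21544659-21544718 (hg19, minus strand), gave 1448 in ALDH+ and 819 in ALDH- cells on array 1, and 715 in ALDH+ and 1367 in ALDH- cells on array 2. Within each dye the populations were close, and the log2 ratios were -0.06 and -0.27, with a mean of -0.17 (technical SD 0.15). The dimmer probe gave 206 in ALDH+ and 262 in ALDH- cells on array 1, and 205 in ALDH+ and 282 in ALDH- cells on array 2. Its log2 ratios were -0.32 and -0.52, with a mean of -0.42 (technical SD 0.14), which is 1.34-fold lower in ALDH+ cells. Both probes were below 0 on both arrays, although with median centering the brighter one was at 0.72 on array 1 and -0.83 on array 2. Neither passed 1.5-fold with the normalization used here, whereas under the array software's ratio the dimmer one was at -0.68 and -0.70, a mean of 1.62-fold lower. Of the 13718 genes, 26.7% had a lower ratio than the brighter ECE1 probe and 9.57% a lower one than the dimmer probe. The ECE1 probes differed by 0.25, and 32.2% of 2510 genes with several measured probes differed at least as much.

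The gene name ECE2 was printed on a pair of probes that belong to different transcripts in the current RefSeq table. ECE2 shares its locus with EEF1AKMT4, a lysine methyltransferase gene, and a readthrough transcript joins them. The bright probe named ECE2, at chr3:183976423-183976482 (hg19, plus strand), carries a transcript that RefSeq now assigns to EEF1AKMT4. It gave 2702 in ALDH+ and 1605 in ALDH- cells on array 1, and 1479 in ALDH+ and 2468 in ALDH- cells on array 2. Its log2 ratios were -0.30 and 0.01, with a mean of -0.14 (technical SD 0.22), a value smaller than the spread between the arrays. The other probe, at chr3:184010623-184010682 (hg19, plus strand), lists transcripts of ECE2 itself and of the readthrough. It gave 50.8 and 50.7 in Cy5 and 125 and 139 in Cy3, in ALDH+ and ALDH- cells respectively, and was well above background in no channel. By array name 3 of the 7 members were measured, but the ECE2 value comes from the EEF1AKMT4 probe, and no probe of ECE2 itself was well above background.

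Of the 3 members measured by array name, EDN1 was past 2-fold higher and none was past 2-fold lower. The choice of the set fixed the EDN1 call, so its count is not read against the 0.211% of all genes.

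**Figure D4:**
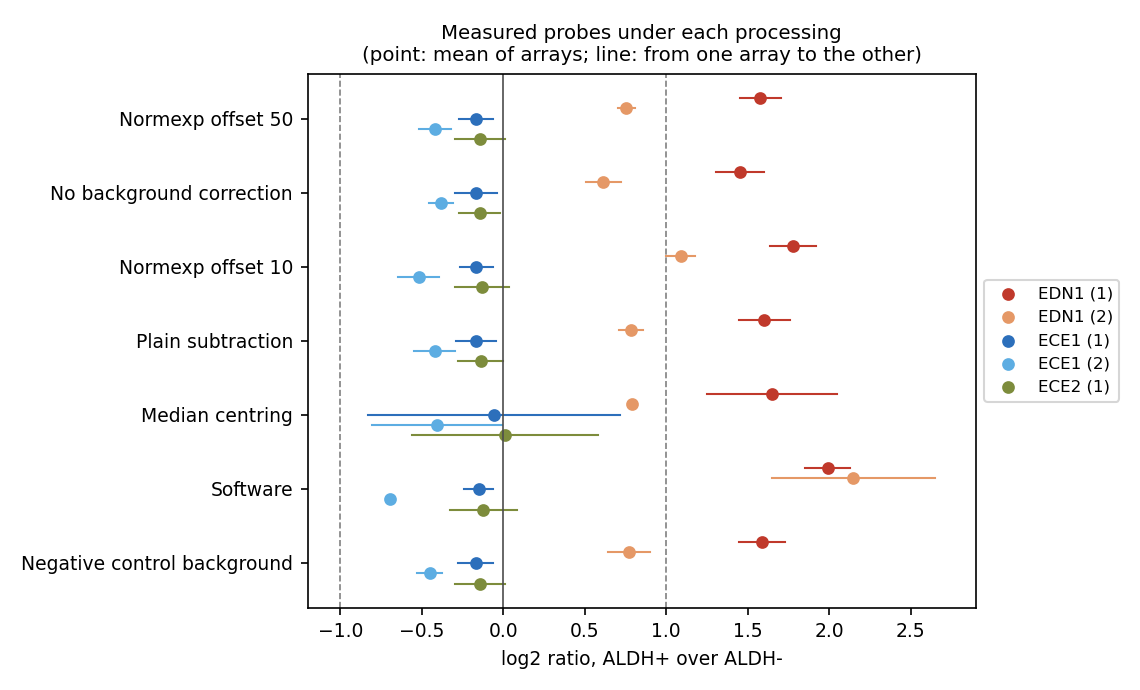
Log2 ratio of ALDH+ over ALDH- cells for the 5 measured probes under 7 ways of processing the arrays; points are the mean of both arrays, lines run from one array to the other, and dashed lines mark 2-fold. The repeated EDN1 probe stays above 1 in each mean, from 1.45 without background correction to 1.99 with the array software's ratio, whereas the second EDN1 probe moves from 0.61 to 2.15.

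The upstream bases of EDN1 are shown because genes known as its transcriptional regulators are given next. The RefSeq table lists several starts for EDN1, and the most downstream, at position 12290361 of chromosome 6 (GRCh38.p14, plus strand), was used. Capitals mark the letters AGATAA of GATA factors, found on the other strand as TTATCT, the letters TGACTAA of an AP-1-type site, and the letters TATAAA of a TATA box. The matches begin at -136, -108 and -31 from that start. These motifs were chosen after the sequence was seen, and both strands were searched in the 250 bases before each start.
EDN1, chr6:12290111-12290360: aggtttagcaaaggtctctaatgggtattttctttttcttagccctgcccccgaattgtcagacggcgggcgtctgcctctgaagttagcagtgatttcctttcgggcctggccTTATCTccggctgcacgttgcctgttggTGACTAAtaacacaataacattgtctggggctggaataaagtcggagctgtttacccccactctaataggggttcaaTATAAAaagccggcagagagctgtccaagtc
Of 35116 promoters, 9.17% held AGATAA, 1.62% TGACTAA and 10.7% TATAAA on either strand, and 6.57% held the common AP-1 letters TGANTCA, which do not overlap the marked ones and are not in this window. Among 11 promoters of the 7 members, each marked motif was found in 1, the EDN1 window shown. As the motifs were chosen from that window, this count supports nothing. A match of letters is a description and does not show binding.

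Of 19 genes known as transcriptional regulators of EDN1, 17 were measured, 6 above 0 and 11 below, and their median log2 ratio was -0.041 (-0.017 and -0.098 on the single arrays). With median centering it was 0.039, with 9 above 0 and 8 below. JUN and FOS encode the founding AP-1 subunits. JUN was at 0.82 on array 1 and 0.95 on array 2, a mean of 1.85-fold higher in ALDH+ cells, and FOS at 0.75 and 0.67, a mean of 1.64-fold. The mean of JUN was 0.89 on the log2 scale, and with median centering it was past 2-fold (1.02). FOSL2, encoding another AP-1 subunit, was the sole gene of this list past 2-fold, at -1.07 and -1.10, a mean of 2.12-fold lower, and with median centering it was at -0.93. JUN and FOS were thus above 0 and FOSL2 below 0 on both arrays. The other AP-1 subunits of the list, JUNB, JUND, FOSB and FOSL1, were at means of 0.25, 0.16, -0.04 and -0.06. They were named after their values were seen. The hypoxia factors were also bright, HIF1A at -0.09 and -0.50 and EPAS1 at -0.55 and -0.37. With median centering the mean of HIF1A went from -0.29 to -0.10 and that of EPAS1 from -0.46 to -0.05. GATA2, the GATA factor of endothelial cells, and KLF2, a flow-induced repressor of EDN1, were not well above background. By count, 2 of the 17 genes were past 1.5-fold higher and 1 was past it lower, against 1.51% and 4.59% of all genes.

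**Figure D5:**
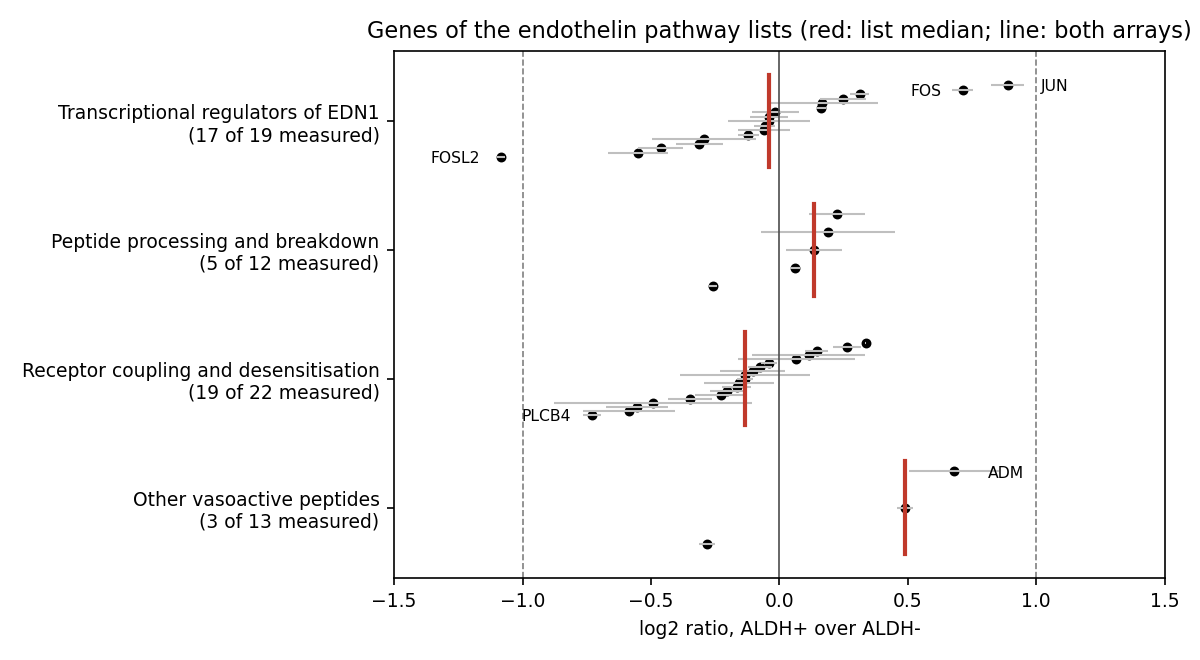
Log2 ratio of ALDH+ over ALDH- cells for the measured genes of 4 lists around the endothelin pathway; each point is a gene's mean of both arrays, the grey line joins its arrays, the red bar is the list median and dashed lines mark 2-fold. Named genes are those past 1.5-fold: JUN, FOS and FOSL2 among the regulators, PLCB4 in the receptor list and ADM among the peptides.

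Of 12 genes for peptide processing and breakdown, 5 were measured, 4 above 0 and 1 below, and none was past 1.5-fold. Their median was 0.14 (0.027 and 0.24 on the single arrays), and -0.0045 over all 12 with no filter on dim probes. Of the brightest, CTSA, a lysosomal carboxypeptidase that degrades endothelin-1, was at 0.04 and 0.08. ECEL1, a relative of the converting enzymes, was at 0.12 and 0.33, with dim signals from 163 to 220. PCSK5, a proprotein convertase, was at -0.27 and -0.24. FURIN was not well above background, and neither was CMA1, a chymase that can cut big endothelin.

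Downstream of the receptors, 19 of 22 genes for G proteins, second messengers and desensitization were measured, 5 above 0 and 14 below. Their median was -0.13 (-0.11 and -0.13 on the single arrays), against -0.0023 for all genes. With median centering it was -0.051, with 8 above 0 and 11 below. PLCB4, a phospholipase C beta, was at -0.70 and -0.76, a mean of 1.66-fold lower in ALDH+ cells. It was the 1 gene of 19 past 1.5-fold, a share near the 4.59% of all genes. Under the software's ratio 3 were, with PRKCA (-0.68) and ITPR2 (-1.81). Those 2 were named after their values were seen. The software's ratio also put more of all genes past 2-fold lower, 276 against 97, and its share of all genes at 1.5-fold was not derived. PRKCA was already 1.499-fold lower with the normalization used here, so the count turns on the threshold. With the normalization used here ITPR2 was at -0.11 and -0.88. In ALDH+ cells it was well above background on only 1 array. Its ALDH+ signals of 106 on array 1 and 138 on array 2 lay inside the negative control ranges of their channels. The size of its ratio is therefore uncertain. Among the brightest genes, RHOA, the small GTPase of contraction, was at 0.33 and 0.34, GNAI2, an inhibitory G protein, at -0.07 and -0.01, and GNAS, the stimulatory G protein, at -0.33 and -0.13. With median centering GNAI2 and GNAS turned to means of 0.29 and 0.19. The GNAS values are those of its brightest probe, and as a mean over its measured probes it was at 0.04.

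Of 13 genes for other vasoactive peptides, 3 were measured, and 1 had no probe under its name. ADM, encoding the vasodilator adrenomedullin, was at 0.86 and 0.50, a mean of 1.60-fold higher in ALDH+ cells (technical SD 0.25 on the log2 scale). UTS2, encoding the vasoconstrictor urotensin-2, was at 0.46 and 0.52, and at a mean of 0.86 under the software's ratio. Its ALDH- signal on array 1 was 183, close to the highest negative control spot of that channel (178). ADM2 was at -0.25 and -0.31.

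Of the 4 genes beside EDN1 on chromosome 6, 1 was measured. HIVEP1 was at 0.35 and -0.25, a mean of 1.04-fold. ADTRP on the same side, and PHACTR1 and LOC100130357 on the other, were not well above background. By the distance between pairs of array ratios, the measured genes nearest to EDN1 were PROM1 (distance 0.15), LTB (0.16), VNN1 (0.23), PRODH (0.33) and RGCC (0.35). PROM1 was at 1.37 and 1.58 and LTB at 1.61 and 1.66. VNN1, a pantetheinase, was at 1.22 and 1.69, PRODH, a proline dehydrogenase, at 1.33 and 1.40, and RGCC, a cell cycle regulator, at 1.80 and 1.72. Likeness was taken over 2 arrays of the same extracts and describes ratio size alone.

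Because EDN1 is an endothelial product, markers of other cell types were read beside it. Of 12 endothelial markers, 2 were measured, CDH5 at 0.21 and 0.17 and MMRN2 at -0.01 and 0.21, and PECAM1, VWF and KDR were not well above background. The CDH5 signals on array 1, 113 in ALDH+ and 167 in ALDH- cells, lay inside the negative control ranges of their channels. The summed signal of the 12 was 966 in ALDH+ and 872 in ALDH- cells in Cy5, and 1881 and 1915 in Cy3. All summed signals here are raw scanner values that include background and were not scaled between arrays. No difference between the populations is read from them. Of 9 leukocyte markers, 4 were measured, and their brightest were CD14 (mean 0.45), CD3D (-0.15) and CD68 (-0.08), with a summed signal over the 9 of 966 and 851 in Cy5 and 1566 and 1560 in Cy3. The CD68 signal of 104 in ALDH+ cells on array 1 also lay inside the control range of its channel. None of 9 fibroblast markers was well above background. All 10 epithelial and clear cell markers were measured, with a median of -0.036 (0.20 with median centering) and a summed signal of 299402 in ALDH+ and 241834 in ALDH- cells in Cy5. KRT7, KRT18 and KRT19 were at means of -0.30, 0.01 and 0.13, and PAX8, a transcription factor of Muellerian epithelium, was at -0.83 and -0.64, a mean of 1.67-fold lower. With median centering PAX8 was at a mean of -0.42, under 1.5-fold, and KRT7 turned to 0.15. The part of other cells in the EDN1 ratio was not tested.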

How the data were processed

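The authors deposited, for each array, spot intensity and local background read by Agilent Feature Extraction (version 8.5.1.1 per the labels, 10.7.3.1 per the file headers), and that software's log10 ratio. A table that joins these log10 ratios was also deposited by the authors. RNA was amplified from an oligo dT primer. Here, mean intensities were corrected with normexp (offset 50) and normalized by loess within each array in limma 3.58.1 (R 4.3.3), with outlier and control spots left out; steps were tested on simulated data. The offset pulls ratios of dim probes toward 0. A repeated probe took the flag (well above background) of over 50% of its spots. Genes took the RefSeq symbol of their transcript where it matched (25422 of 34127 probes), and members kept their array name. Named genes were all members, list genes past 1.5-fold or among the 3 brightest of a list, the 5 nearest to EDN1, and 2 neighbors on each side. Members and lists were chosen with earlier results of these data known. No test was possible with 1 extract of each population, and the number of arrays limits the precision.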

Additional observations from a re-analysis of the deposited data

How the results depend on the processing

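The EDN1 log2 ratio of 1.58 rose to 1.78 with a normexp offset of 10 and to 1.99 with the array software's ratio, also in the joined table, and fell to 1.17 as the mean of both EDN1 probes. Single arrays gave 1.45 and 1.71. Its rank ran from 2 (array 2 alone) to 20 (software ratio). The other alternatives moved it by less than the technical SD. At 3-fold in place of 2-fold, 0 members were called. The values of the brighter ECE1 and ECE2 probes moved by less than their technical SD in every alternative run, though ECE2, at -0.14, was at 0.01 on array 2 and with median centering. The dimmer ECE1 probe went from -0.42 to -0.69 under the software's ratio. The peptide processing median of 0.14 was -0.0045 with no filter. The receptor list median of -0.13 became -0.12 with uncorrected signals, -0.16 at offset 10, -0.11 under the software's ratio and in the joined table, -0.051 with median centering and -0.12 with no filter; single arrays gave -0.13 and -0.11. The regulator list median became 0.039 with median centering. The median of other vasoactive peptides, 0.49, became 0.41 with uncorrected signals, 0.66 at offset 10, 0.71 under the software's ratio and in the joined table, 0.42 as a mean over probes and -0.028 with no filter, which adds genes near background. The cause of the other changes was not tested. Taking background from the negative control spots, an alternative chosen after seeing the data, gave 1.59 for EDN1. Median centering shifted the median of all genes by 0.56 and -0.43 on the arrays, and by 0.073 in their mean. No paired analysis was possible because the replicate numbers name arrays of the same extracts. With 1 sort of each population, the spread between sorts is not known.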
